A study of Mus musculus with 11 samples.

Results

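Common lymphoid progenitors (CLPs) that carry the surface protein Ly-6D were compared with CLPs that lack it, in mice that had received only PBS. The samples were chosen by their titles, which gave 2 arrays of Ly-6D+ CLPs and 3 arrays of Ly-6D- CLPs after PBS, 5 of the 11 arrays in the series; arrays are numbered by their replicate. The C57BL/6 mice received PBS on alternate days over 10 days, and bone marrow CLPs were sorted on day 10 straight into the extraction buffer. The other 6 arrays, 3 of each population, came from mice given 50 µg of CpG1826, a synthetic oligonucleotide that activates Toll-like receptor 9, on the same schedule. The labels name the strain and no further genotype, and age is not given in the sources used here. Whether each array stands for 1 mouse or a pool, and whether both populations were sorted from the same mice, is not in the labels. The p-values therefore measure the spread between these samples, which may be technical.

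CLPs are bone marrow progenitors that can give rise to B, T and NK cells and to some dendritic cells. Ly-6D, a small GPI-anchored protein, appears on CLPs as they turn towards the B lineage, while Ly-6D- CLPs keep wider potential. Entry into the B lineage is driven by the transcription factors E2A, Ebf1, Foxo1 and Pax5, downstream of the interleukin-7 receptor. They switch on the surrogate light chain and the signalling chains that will form the pre-B-cell receptor.

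Levels are log2 values after robust multi-array averaging (RMA), so a step of 1 is a 2-fold difference. All comparisons came from a linear model over the 11 arrays. A gene passed where its p from limma, after Benjamini-Hochberg adjustment over 22180 genes, was below 0.05. The medians of the 5 PBS arrays lay between 3.90 and 3.96. Across all genes, arrays of the same population correlated at 0.992 and arrays of different populations at 0.987 to 0.988. On the first principal component of the PBS arrays (44.5%) the positions of the Ly-6D+ arrays were -28.8 and -26.6 and those of the Ly-6D- arrays between 15.8 and 19.8. On the second (19.8%), Ly-6D- array 3 stood at 23 against -14.4 and -9.3 for its partners, and the 2 Ly-6D+ arrays stood at 13 and -12.4.

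Ly6d, the gene behind the sort, read 12.56 and 12.59 in the 2 Ly-6D+ arrays and 8.03, 8.15 and 8.50 in the 3 Ly-6D- arrays. The populations did not overlap, and the 20.4-fold difference follows from how the cells were gated, so it serves only as a check of the labels. Levels of genes that mark CLPs are given as values. No other cell type is in the series, so they do not check the CLP label. Il7r, the interleukin-7 receptor chain, lay between 10.03 and 10.76 in all 5 arrays. Flt3, the receptor for Flt3 ligand, lay between 10.74 and 10.87, and Dntt, the terminal transferase of lymphoid precursors, between 12.15 and 12.34. Ly6a, which encodes Sca-1, was not analysed here. Granulocyte genes were also bright in every array: S100a8 read 12.49 to 12.71 and Camp, a neutrophil granule peptide, 10.63 to 11.37.

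After PBS, 439 genes (1.98% of all genes) differed between the populations. In Ly-6D+ CLPs 262 were higher (1.18%) and 177 were lower (0.798%). Unadjusted p was below 0.05 for 2644 genes (11.9%). All 439 had no overlap between the arrays of the populations, as had 2867 genes that were higher in every Ly-6D+ array (12.9%) and 3107 that were lower (14%), called or not. The median fold of the genes that passed was 1.88 upward and 1.99 downward. The rises reached further: 31 of the higher genes differed by 4-fold or more, against 10 of the lower ones. The median log2 change of all genes was -0.01. The count rests in part on single arrays: it was 185 without Ly-6D+ PBS array 1, 213 without Ly-6D+ PBS array 2 and 285 without Ly-6D- PBS array 2. Of the 17824 probe sets with no symbol or several, fitted separately, 29 passed (0.163%), 20 higher (0.112%) and 9 lower (0.0505%). The count of 439 was 190 with the PBS arrays fitted alone and 660 with limma's trend and robust options. Of the 126 genes from the lists or named below that passed, 37 lost their call with the PBS arrays fitted alone.

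**Figure D1:**
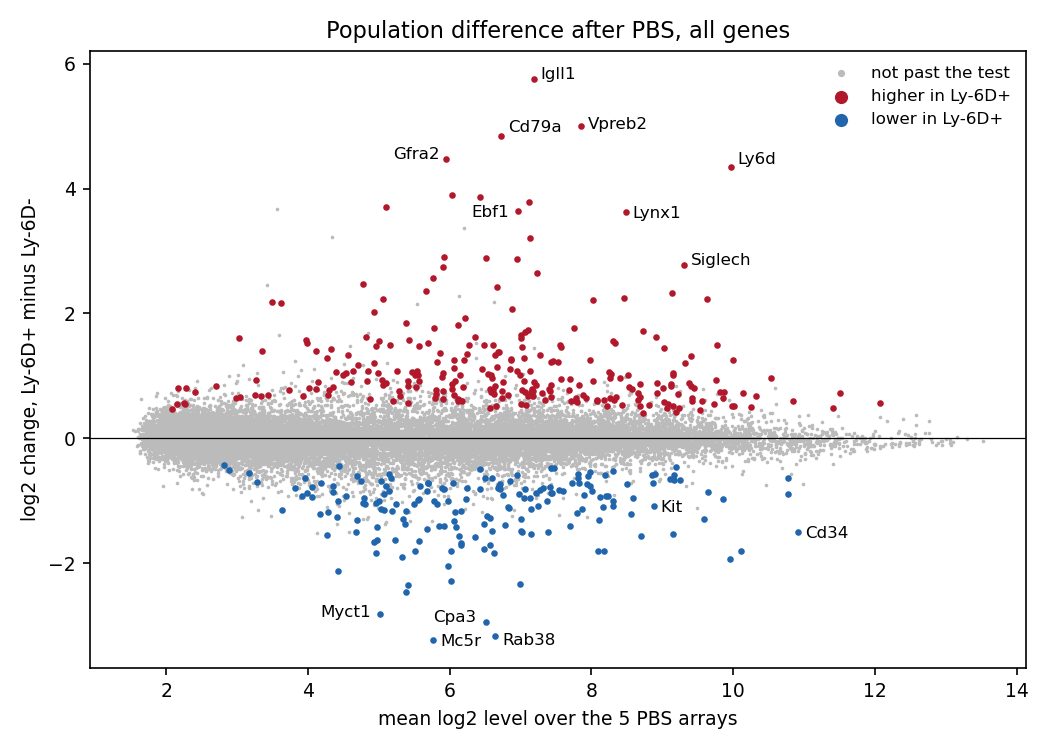
Log2 change between the populations (Ly-6D+ minus Ly-6D-, y axis) against the mean log2 level over the 5 PBS arrays (x axis), 1 point per gene; red and blue points are the 262 higher and 177 lower genes that passed. The largest rises, led by Igll1 at 5.76, lie further from 0 than the largest falls, led by Mc5r at -3.23.

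The 3 largest rises of all genes, Igll1, Vpreb2 and Cd79a, were in genes of the pre-B-cell receptor. This receptor pairs the immunoglobulin µ heavy chain with a surrogate light chain, made of λ5 (Igll1) and VpreB (Vpreb1, Vpreb2), and signals through Igα (Cd79a) and Igβ (Cd79b). Of the 7 measured members of the list, 5 were higher in Ly-6D+ CLPs and 0 lower, with a median log2 change of 3.79. Over all genes 1.18% passed as higher. The list includes Vpreb3, whose own log2 change is that median, and was chosen with earlier results of these data known. The 250 bases upstream of 4 of the list's genes are shown. They were picked because Igll1, Vpreb2 and Cd79a differed together, while Vpreb1, near-identical to Vpreb2, did not pass. The windows are from RefSeq on GRCm38.p6, 5′ to 3′ on the gene's strand, and end just before the annotated start. Capitals mark CAGGTG, or CACCTG where it lies on the other strand, the E-box that E proteins such as E2A prefer. The windows are chr16:16863986-16864235 on the minus strand for Igll1, chr16:16869256-16869505 on the minus strand for Vpreb1, chr16:17980315-17980564 on the plus strand for Vpreb2 and chr7:24897247-24897496 on the plus strand for Cd79a.
Igll1: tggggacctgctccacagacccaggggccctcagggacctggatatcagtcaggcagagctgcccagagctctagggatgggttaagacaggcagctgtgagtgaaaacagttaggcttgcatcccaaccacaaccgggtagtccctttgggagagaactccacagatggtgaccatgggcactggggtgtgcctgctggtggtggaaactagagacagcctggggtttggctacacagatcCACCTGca
Vpreb1: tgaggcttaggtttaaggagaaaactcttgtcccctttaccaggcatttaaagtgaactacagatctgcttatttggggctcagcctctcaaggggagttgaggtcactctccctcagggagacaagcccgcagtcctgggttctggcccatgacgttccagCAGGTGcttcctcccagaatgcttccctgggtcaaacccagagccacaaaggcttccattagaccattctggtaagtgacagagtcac
Vpreb2: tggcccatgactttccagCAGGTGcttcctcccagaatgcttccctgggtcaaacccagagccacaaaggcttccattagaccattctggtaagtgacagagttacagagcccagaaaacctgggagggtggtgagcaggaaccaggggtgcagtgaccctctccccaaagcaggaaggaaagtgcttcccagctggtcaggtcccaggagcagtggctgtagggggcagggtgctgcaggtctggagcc
Cd79a: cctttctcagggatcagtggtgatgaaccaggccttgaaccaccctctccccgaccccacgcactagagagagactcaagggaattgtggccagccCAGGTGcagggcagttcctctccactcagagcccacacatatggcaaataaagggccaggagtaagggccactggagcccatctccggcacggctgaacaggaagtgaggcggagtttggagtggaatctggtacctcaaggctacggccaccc
Each window holds 1 such E-box, whose first base lies 8 bases upstream of the start in Igll1, 88 in Vpreb1, 232 in Vpreb2 and 154 in Cd79a. Among genes with a promoter, 22.5% of the higher, 20.7% of the lower and 19.4% of all genes held this E-box. Vpreb3 and Cd79b, which also passed, are not shown, and whether these E-boxes act was not tested. The Vpreb1 and Vpreb2 windows share an unbroken run of 91 bases, and an aligned stretch of 106 bases around their E-boxes has 2 differences.

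Igll1 read 10.60 and 10.68 in the Ly-6D+ arrays against 4.83, 4.85 and 4.97 in the Ly-6D- arrays. Every Ly-6D+ array lay far above every Ly-6D- array, a 54.0-fold difference (SE 0.23 on the log2 scale, adjusted p = 1.68e-06). Vpreb2 read 10.82 and 10.91 against 6.23, 5.11 and 6.22, which is 32.2-fold (SE 0.32, adjusted p = 1.72e-05), with 1 Ly-6D- array lower than the other two. Vpreb1 read 3.94 and 4.23 against 3.88, 3.94 and 3.94, a log2 change of 0.16 (adjusted p = 0.774). Vpreb1 and Vpreb2 are near-identical copies, so how the array shares signal between their probe sets is uncertain. Cd79a read 9.65 and 9.62 against 5.07, 4.65 and 4.64 (28.8-fold, SE 0.29, adjusted p = 1.40e-05). Its partner chain Cd79b, whose Ly-6D- arrays were already at 9.03, 8.71 and 8.51, read 9.75 and 9.76 and differed 2.01-fold (SE 0.14, adjusted p = 0.00468). Without Ly-6D+ PBS array 1, Cd79b did not pass (adjusted p = 0.0515). Vpreb3, which encodes a small endoplasmic reticulum protein of early B cells, read 9.30 and 9.50 against 5.47, 5.61 and 5.75 (13.8-fold, SE 0.21, adjusted p = 1.00e-05). The µ heavy chain gene Ighm was bright in both populations, at 12.69 and 12.72 against 12.52, 12.53 and 12.42. The populations did not overlap, but it did not pass (log2 change 0.21, adjusted p = 0.493), and its 6 other probe sets ranged from -1.29 to 1.04 without a call.

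The gene segments of the immunoglobulin loci gave no call, but single arrays stood far from the rest. Of 14 measured light-chain segments 0 passed by limma (4 at an unadjusted p below 0.05; median log2 change 1.08), and of 3 heavy-chain segments 0 passed (0 unadjusted; median 0.40). Up to 2 light-chain segments passed when 1 array was left out. Igkv4-70 came closest, at 5.57 and 6.98 against 3.44, 3.07 and 2.65 (adjusted p = 0.0520). Igkv15-103 read 10.21 in Ly-6D+ PBS array 1 and 4.80 to 5.39 in the other 4 arrays. Igkv9-120 read 8.44 in Ly-6D+ PBS array 2 and 1.94 to 3.11 elsewhere, and Igkv8-30 read 8.08 in Ly-6D- PBS array 2 and 2.42 to 3.71 elsewhere. Igkv4-72 read 8.30 and 8.15 in the Ly-6D+ arrays but also 8.26 in Ly-6D- PBS array 1. Igkv15-103 and Igkv8-30 were singled out after their values were seen. Jchain, the joining chain of plasma cells, also varied within populations, at 5.21 and 6.86 against 4.93, 6.67 and 3.84. The part of other cells in these single high values was not tested.

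Several transcription regulators of the B lineage were higher. Of the 14 measured genes on that list, 6 were higher in Ly-6D+ CLPs and 0 lower (median log2 change 0.81). In every Ly-6D+ array 10 of them were higher. Over all genes 1.18% passed as higher and 12.9% were higher in every Ly-6D+ array. Ebf1, the factor that specifies the B lineage, read 9.14 and 9.15 against 5.34, 5.53 and 5.64. The populations were far apart, at 12.5-fold (SE 0.19, adjusted p = 9.24e-06). Pax5, which commits cells to the lineage, read 7.43 and 7.20 against 4.51, 4.66 and 5.06 (5.96-fold, SE 0.19, adjusted p = 5.08e-05). Spib, an Ets factor of B cells and plasmacytoid dendritic cells, read 8.35 and 8.39 against 3.98, 4.68 and 4.77 (14.8-fold, SE 0.41, adjusted p = 7.52e-04). The coactivator Pou2af1 read 8.67 and 8.81 against 5.03, 4.80 and 4.80 (14.5-fold, SE 0.33, adjusted p = 1.48e-04). Foxo1 was 3.26-fold higher (adjusted p = 2.25e-04), and 2 probe sets of it both passed, with log2 changes of 1.70 and 1.0. Lef1, the Wnt pathway factor of pro-B cells, was 5.14-fold higher (adjusted p = 0.00234). These 6 genes passed whichever single array was left out. Factors that already act in lymphoid progenitors differed less: Ikzf1 had a log2 change of 0.18, Ets1 of 0.29 and Bcl11a of 0.31, and none of them passed. Irf4 missed the threshold (log2 change 0.90, adjusted p = 0.0614).

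**Figure D2:**
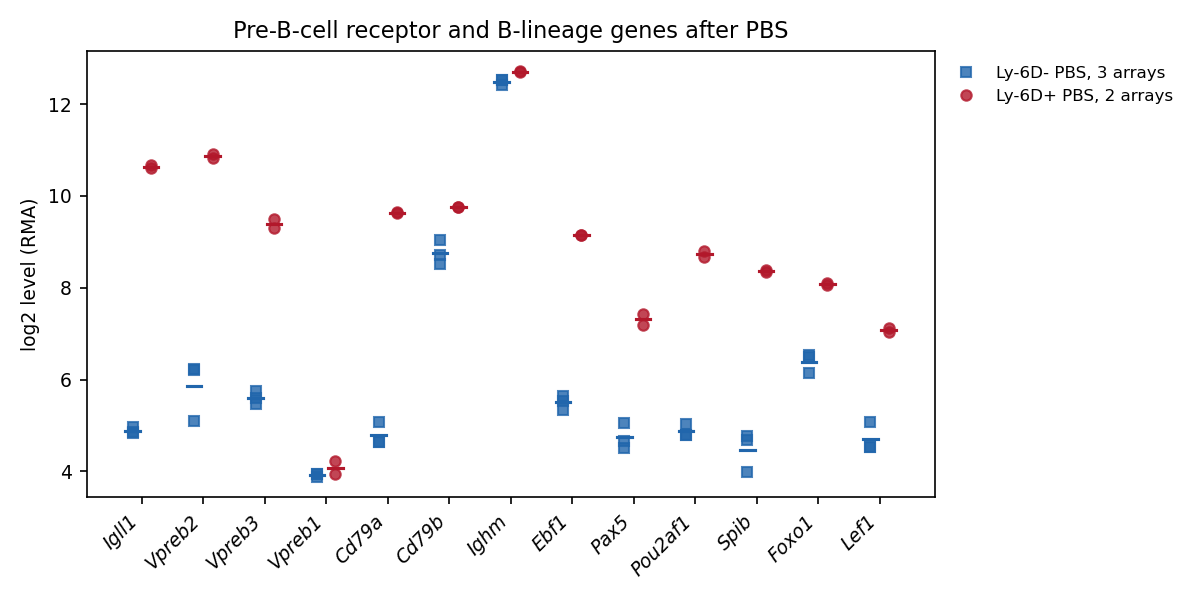
Log2 level (y axis) of pre-B-cell receptor and B-lineage genes (x axis) in each PBS array; red circles are the 2 Ly-6D+ arrays, blue squares the 3 Ly-6D- arrays and short lines their means. Levels are to be compared within a gene; Igll1 shows the widest gap, from 4.97 to 10.60, while Vpreb1 meets between the populations and Ighm lies apart by a small step without passing.

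E proteins and their Id inhibitors set the activity of E2A. The list of E proteins, Id inhibitors and partners such as Tal1 gave 1 higher and 1 lower gene of 9. All genes gave 1.18% and 0.798%, and the list's median log2 change was 0.04. Id3, an inhibitor that E proteins themselves induce, read 5.99 and 5.60 against 4.44, 4.09 and 3.96 (3.10-fold higher, SE 0.33, adjusted p = 0.0324). Tal1, a factor of stem and erythroid cells that pairs with E proteins, read 4.53 and 4.76 against 5.33, 5.33 and 5.56 (1.70-fold lower, adjusted p = 0.0388). Both calls are weak. Id3 lost its call without any single PBS array and without Ly-6D+ CpG array 2 or Ly-6D- CpG array 1 (adjusted p up to 0.237). Tal1 lost it without any single PBS array and without Ly-6D+ CpG array 3 or Ly-6D- CpG array 1 or 2 (adjusted p up to 0.270). The E protein genes themselves did not pass, with log2 changes of 0.29 for Tcf3, which encodes E2A, 0.37 for Tcf4 and 0.04 for Tcf12. Id2, which opposes the B fate, read 7.02 and 7.18 against 7.35, 7.28 and 7.19 (log2 change -0.17, adjusted p = 0.831).

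Genes of the B-cell receptor signalling list gave 6 higher and 0 lower of 14 (median log2 change 0.36). Not all of them act below the receptor. Over all genes 1.18% passed as higher. Fcrla, a Fc receptor-like protein of B cells, read 7.66 in both Ly-6D+ arrays against 4.72, 4.20 and 5.37 (7.44-fold, SE 0.28, adjusted p = 3.58e-04). Blk, a Src family kinase, read 8.01 and 8.49 against 5.39, 5.37 and 5.33 (7.39-fold, SE 0.22, adjusted p = 6.51e-05). Blnk, the adaptor that links the receptor to its effectors, read 10.70 and 10.65 against 9.34, 9.19 and 9.0 (2.83-fold, SE 0.19, adjusted p = 0.00227). The populations did not overlap in these genes. Pik3ap1 (1.58-fold), the inhibitory receptor gene Cd22 (1.86-fold) and the kinase gene Syk (1.51-fold) also passed, at adjusted p between 0.00805 and 0.0475. Without Ly-6D+ PBS array 1 none of these last 3 passed, nor without Ly-6D+ PBS array 2. Cd22 and Syk also lost their calls without any single Ly-6D- PBS array, Cd22 without Ly-6D+ CpG array 1 or Ly-6D- CpG array 1 or 3, and Syk without any Ly-6D+ CpG array or Ly-6D- CpG array 2. The highest adjusted p over all single arrays left out was 0.0733 for Pik3ap1, 0.249 for Cd22 and 0.203 for Syk. Dapp1, an adaptor, was lower in every Ly-6D+ array and missed the threshold (log2 change -0.91, adjusted p = 0.0503). Cd72 and Lyn were not analysed here.

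Of 13 measured genes of V(D)J recombination and end joining, 0 passed by limma (3 at an unadjusted p below 0.05, and at most 1 under any alternative setting), and the median log2 change was 0.08. Rag2, a subunit of the recombinase, read 9.80 and 9.89 against 9.61, 9.71 and 9.48 (log2 change 0.25, adjusted p = 0.454). Dntt read 12.15 and 12.17 against 12.28, 12.34 and 12.28 (log2 change -0.14, adjusted p = 0.686). Rag1 was not analysed here.

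Mature B-cell and plasma-cell genes gave 0 calls of 14 by limma (5 at an unadjusted p below 0.05, and up to 3 under alternative settings), with a median log2 change of 0.31. Their mean level was 5.54 and 5.67 in the Ly-6D+ arrays and 5.21 to 5.38 in the Ly-6D- arrays. Ms4a1, which encodes CD20, read 3.20 and 3.10 against 2.98, 2.73 and 2.75. Sdc1, which encodes the plasma-cell and pro-B surface protein CD138, was higher in every Ly-6D+ array but missed the threshold (log2 change 0.76, adjusted p = 0.0875), while another of its probe sets passed at 0.85.

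Several of the largest rises lay outside these pathways. Gfra2, a receptor of the GDNF family, read 8.54 and 8.74 against 4.13, 4.04 and 4.30, with no overlap and a 22.4-fold difference (SE 0.28, adjusted p = 1.72e-05). Cecr2, a bromodomain protein of chromatin remodelling complexes, was 13.1-fold higher (SE 0.17, adjusted p = 2.27e-06). Mzb1, an endoplasmic reticulum cochaperone of B cells, was 9.23-fold higher (SE 0.26, adjusted p = 1.18e-04). Rnase12 was 7.31-fold higher (SE 0.20, adjusted p = 4.65e-05).

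Lynx1 is a Ly6 family member and the gene next to Ly6d on chromosome 15 in the RefSeq order. It read 10.77 and 10.55 against 7.02, 7.46 and 6.61, which is 12.4-fold (SE 0.21, adjusted p = 1.09e-05), and the populations did not overlap. Of 10 measured Ly6 family genes these 2 passed, both higher, against 1.18% of all genes. The call of Ly6d follows from the sort, which leaves Lynx1 as the other call. The family's median log2 change, with Ly6d included, was 0.42. Ly6k was higher in every Ly-6D+ array (8.24 and 7.88 against 6.71, 5.90 and 7.22) but did not pass (adjusted p = 0.0857), and its other probe set had a log2 change of 0.21. Ly6e, which sits at 12.81 and 12.79 against 12.46, 12.40 and 12.43, missed the threshold (adjusted p = 0.0588). Ly6c2 read 10.95 and 10.92 against 10.37, 10.33 and 10.46 (adjusted p = 0.245). Ly6c1, Ly6f, Ly6g, Ly6h and Ly6i had log2 changes between -0.38 and 0.44 and did not pass.

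Plasmacytoid dendritic cells, the main producers of type I interferon, can also arise from lymphoid progenitors, and many of their genes were higher in Ly-6D+ CLPs. Of 14 measured genes on that list 7 were higher and 0 lower, with a median log2 change of 0.57, while 1.18% of all genes were higher. Siglech, a sialic acid-binding receptor of these cells, read 10.95 and 10.98 against 8.28, 8.31 and 8.02, with a wide gap between populations (6.80-fold, SE 0.13, adjusted p = 2.27e-06). Cd300c read 9.28 and 9.42 against 7.22, 7.35 and 6.87 (4.62-fold, SE 0.23, adjusted p = 7.55e-04). Tlr9, the receptor for CpG DNA, read 7.98 and 7.97 against 6.70, 6.41 and 6.01 (3.03-fold, SE 0.21, adjusted p = 0.00280). The endocytic adaptor Pacsin1 was 2.56-fold higher, Bst2, which encodes tetherin, 1.96-fold, and Irf8, a transcription factor of dendritic cells, 1.65-fold, with log2 changes of 0.72 and 1.07 in its probe sets. Irf8 did not pass with the PBS arrays fitted alone (adjusted p = 0.0770). Cox6a2 was 1.47-fold higher and lost its call without Ly-6D+ PBS array 2 (adjusted p = 0.0944). Irf7, the master regulator of interferon production, read 6.84 in both Ly-6D+ arrays against 6.96, 7.19 and 6.77 and did not pass (adjusted p = 0.878). Tlr7 had a log2 change of -0.21 (adjusted p = 0.618) and Ccr9 of 0.58 (adjusted p = 0.223). The list's mean level was 8.46 and 8.41 in the Ly-6D+ arrays and 7.54 to 7.74 in the Ly-6D- arrays. In bulk samples such as these, more cells of a type and more RNA per cell cannot be told apart.

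Among conventional dendritic cell genes 1 of 13 was higher and 0 lower, against 1.18% and 0.798% of all genes (median log2 change 0.10). That gene was Itgax, which encodes CD11c (7.67 and 7.39 against 6.29, 6.28 and 5.86, 2.61-fold, adjusted p = 0.00241). Batf3, a factor of cross-presenting dendritic cells, was lower in every Ly-6D+ array and missed the threshold (log2 change -0.92, adjusted p = 0.0646). Zbtb46 and Xcr1, which define conventional dendritic cells, stayed between 3.09 and 3.62 in all 5 arrays.

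Among Toll-like receptor signalling genes 2 of 16 were higher and 0 lower, against 1.18% and 0.798% of all genes (median log2 change -0.12). Besides Tlr9 this was Unc93b1, which carries nucleic acid receptors to endosomes (10.60 and 10.51 against 10.16, 10.09 and 9.91, 1.42-fold, adjusted p = 0.0465). Unc93b1 lost its call without any single array but Ly-6D- CpG array 3 (adjusted p up to 0.266). The surface receptors Tlr1, Tlr2, Tlr4 and Tlr6 had log2 changes between -0.56 and -0.31. Tlr5, also a surface receptor, had one of 0.24, and none of these receptors passed.

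Receptors for early growth factors split. Of 11 measured genes of interleukin-7, Flt3 and Kit signalling, 1 was higher and 1 lower, against 1.18% and 0.798% of all genes. The list's median log2 change was -0.13. Il7r read 10.71 and 10.76 against 10.03, 10.08 and 10.06, with no overlap (1.60-fold higher, SE 0.14, adjusted p = 0.0365). It lost its call without any single PBS array and without Ly-6D+ CpG array 1 or Ly-6D- CpG array 1 (adjusted p up to 0.176). Kit, the stem cell factor receptor, read 8.33 and 8.13 against 9.42, 9.31 and 9.20 (2.12-fold lower, SE 0.13, adjusted p = 0.00210) and passed whichever array was left out. Flt3 was 10.74 in both Ly-6D+ arrays and 10.87, 10.82 and 10.84 in the Ly-6D- arrays, a log2 change of -0.11 that did not pass (adjusted p = 0.814).

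Genes of stem cells and multipotent progenitors were lower in Ly-6D+ CLPs. Of 17 measured members 10 were lower and 0 higher, 13 were lower in every Ly-6D+ array, and the median log2 change was -0.77. Over all genes 0.798% passed as lower and 14% were lower in every Ly-6D+ array. Cd34, a sialomucin of early progenitors, read 9.92 and 10.10 against 11.49, 11.53 and 11.51, with tight replicates and a 2.83-fold difference (SE 0.10, adjusted p = 2.92e-05). Myct1 read 3.48 and 3.20 against 6.14, 6.38 and 5.92 (7.0-fold lower, SE 0.26, adjusted p = 2.75e-04). Hlf, a transcription factor of stem cells, read 5.49 and 5.37 against 7.25, 7.25 and 7.09 (3.40-fold lower, SE 0.18, adjusted p = 5.89e-04). Gata2, needed for stem and mast cells, read 3.64 and 4.08 against 5.72, 5.79 and 5.60 (3.59-fold lower, SE 0.25, adjusted p = 0.00385). In these 4 genes every Ly-6D+ array lay below every Ly-6D- array.

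The others that passed were Mecom (2.92-fold lower), Procr (2.84-fold), Angpt1 (2.19-fold), Meis1 (1.90-fold), Hoxa9 (1.70-fold) and Cd27 (1.59-fold). Mecom, Meis1 and Hoxa9 encode transcription factors of stem cells, Procr the endothelial protein C receptor and Angpt1 the growth factor angiopoietin-1. Calls here depended on the 2 Ly-6D+ arrays. Only 4 of the 10 passed in the worst case of leaving out 1 array. Without Ly-6D+ PBS array 1 the adjusted p was above the threshold for Gata2, Mecom, Procr, Meis1, Angpt1 and Cd27. Without Ly-6D+ PBS array 2 it was above it for Mecom, Hoxa9, Angpt1 and Cd27. The highest values were 0.0606 for Gata2, 0.0527 for Mecom, 0.0666 for Procr, 0.0611 for Meis1, 0.0682 for Hoxa9, 0.174 for Angpt1 and 0.206 for Cd27. A further probe set of Mecom had a log2 change of -0.84 and one of Angpt1 of -0.79, and neither passed. Angpt1 and Cd27 also lost their calls without Ly-6D- PBS array 2 or 3, and Cd27 without Ly-6D- PBS array 1.

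Mast cell, megakaryocyte and erythroid genes gave 4 lower and 1 higher of 16, against 0.798% and 1.18% of all genes (median log2 change -0.14). Cpa3, the mast cell carboxypeptidase, read 5.04 and 4.47 against 8.05, 7.95 and 7.09 (7.67-fold lower, SE 0.28, adjusted p = 3.28e-04). Car2, carbonic anhydrase II, read 7.15 and 6.88 against 8.68, 9.02 and 8.76 (3.50-fold lower, SE 0.14, adjusted p = 6.79e-05). Gp9, a platelet glycoprotein, was 2.99-fold lower and Mcpt8, a basophil protease, 2.43-fold lower. Gp9 lost its call without Ly-6D+ PBS array 1 (adjusted p = 0.0506). Mcpt8 lost its call without any single PBS array and without Ly-6D- CpG array 1 or 2 (adjusted p up to 0.187). The transferrin receptor gene Tfrc, which proliferating cells also use, was 1.75-fold higher (9.88 and 9.98 against 9.06, 9.10 and 9.21, adjusted p = 0.00191). Gata1, which defines the erythroid and megakaryocyte lineages, read 3.67 and 3.47 against 3.40, 3.65 and 3.40, and the mast cell receptor genes Ms4a2 and Fcer1a stayed between 2.16 and 3.53. Prg2 read 8.63 in Ly-6D+ PBS array 2 and 7.89 in Ly-6D- PBS array 1 but 3.96 to 4.58 in the other 3 arrays.

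Granulocyte and monocyte genes gave 4 lower and 1 higher of 28, against 0.798% and 1.18% of all genes. Of these 28 genes 16 were lower in every Ly-6D+ array, against 14% of all genes, and the median log2 change was -0.39. F13a1, factor XIII of monocytes, read 4.75 and 4.74 against 6.98, 6.81 and 6.58 (4.14-fold lower, SE 0.24, adjusted p = 0.00148). Csf3r, the G-CSF receptor, read 5.81 and 6.65 against 7.78, 7.76 and 7.75 (2.89-fold lower, SE 0.22, adjusted p = 0.00427), and did not pass with the PBS arrays fitted alone (adjusted p = 0.0840). Cebpa, the factor that starts the granulocyte programme, read 5.40 and 5.52 against 6.44, 6.60 and 6.85 (2.25-fold lower, adjusted p = 0.00670), and the monocyte chemokine receptor gene Ccr2 was 2.38-fold lower (adjusted p = 0.0117). Cebpa did not pass without Ly-6D+ PBS array 1 (adjusted p = 0.0805), nor Ccr2 without either Ly-6D+ PBS array (up to 0.113). The gene that was higher was Csf2rb2, the interleukin-3 receptor chain (8.37 and 7.93 against 6.61, 6.56 and 6.05, 3.34-fold, adjusted p = 0.00315), which did not pass without Ly-6D+ PBS array 1 (adjusted p = 0.0508).

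The granule genes Mpo, Ctsg and Elane did not pass. Mpo read 9.74 and 10.30 against 10.87, 10.79 and 10.64 (log2 change -0.75, adjusted p = 0.106), and Ctsg read 8.23 and 9.41 against 9.95, 10.23 and 9.61 (adjusted p = 0.0966). Elane read 8.04 in Ly-6D+ PBS array 1 and 9.37 in array 2, and 8.66 to 9.36 in the Ly-6D- arrays, so the populations overlapped. The mean level of the list was 7.32 in Ly-6D+ PBS array 1, 7.70 in array 2 and 7.88 to 8.07 in the Ly-6D- arrays. The part of other cells in these levels was not tested. S100a8, S100a9, Camp and Ngp, the late neutrophil genes, had log2 changes between -0.27 and -0.03. Csf1r, the M-CSF receptor, had one of -0.91 and missed the threshold (adjusted p = 0.0864).

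**Figure D3:**
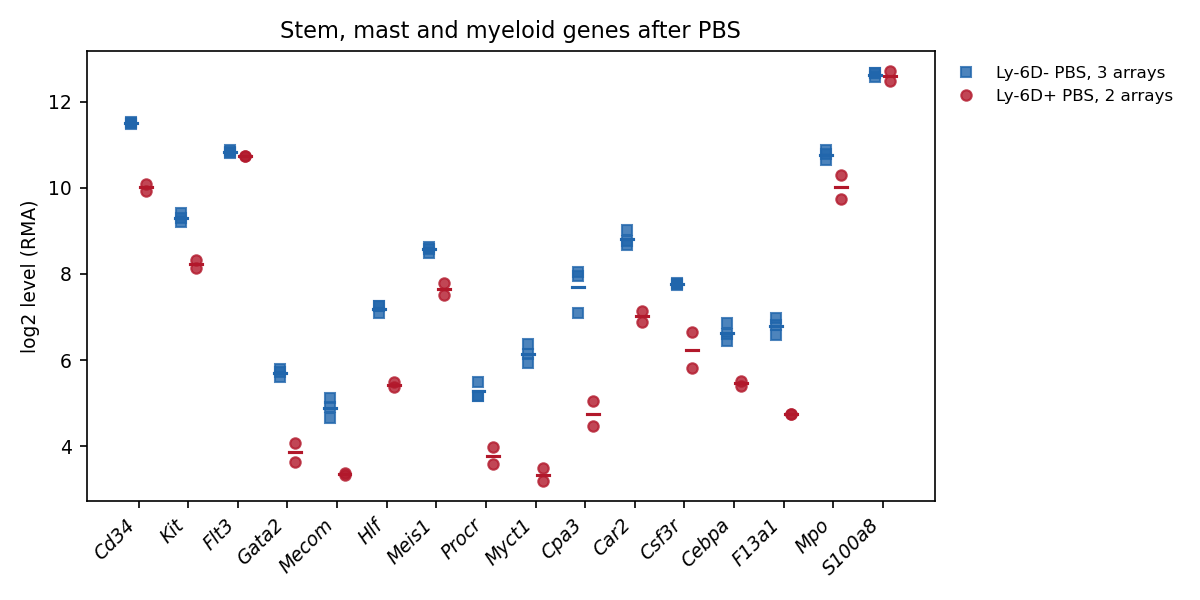
Log2 level (y axis) of stem, mast cell and myeloid genes (x axis) in each PBS array; red circles are the 2 Ly-6D+ arrays, blue squares the 3 Ly-6D- arrays and short lines their means. Cd34 to Myct1 (without Flt3), Cpa3, Car2, Csf3r, Cebpa and F13a1 passed as lower; Flt3 and Mpo also lie lower in both Ly-6D+ arrays but did not pass, nor did S100a8.

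The largest falls also held genes outside these lists. Mc5r, a melanocortin receptor, read 3.89 and 3.77 against 7.47, 7.36 and 6.36 (9.39-fold lower, SE 0.52, adjusted p = 0.00915). Rab38, a small GTPase of lysosome-related organelles, read 4.42 and 5.06 against 7.74, 8.16 and 7.82 (9.01-fold lower, SE 0.20, adjusted p = 1.70e-05). Emcn, the sialomucin endomucin of stem and endothelial cells, read 3.42 and 4.41 against 6.39, 6.46 and 6.27 (5.50-fold lower, SE 0.28, adjusted p = 0.00129). Rhobtb3, an atypical GTPase, was 5.13-fold lower and Gcnt2, a glycan-branching enzyme, 5.03-fold, with 3 probe sets of Gcnt2 between -2.33 and -1.43. Pcp4l1 was 4.89-fold lower and Tnip3, which binds the NF-kB inhibitor A20, 4.38-fold. Wfdc17 was 3.85-fold lower, thromboxane synthase (Tbxas1) 3.73-fold, the thioesterase gene Acot1 3.59-fold and the adhesion receptor gene Adgrl4 3.51-fold. Without Ly-6D+ PBS array 1 neither Mc5r nor Tnip3 passed, and without array 2 Mc5r did not (adjusted p up to 0.0799 for Mc5r and 0.0784 for Tnip3). The others kept their calls whichever array was left out. In the Ly-6D+ arrays the means of Mc5r, Emcn, Tnip3, Myct1, Gata2, Mecom and Procr lay below the array medians, as did that of Cecr2 in the Ly-6D- arrays. The deposited values do not show signal over background there, so these folds may be too small and the order of the largest falls is uncertain.

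**Figure D4:**
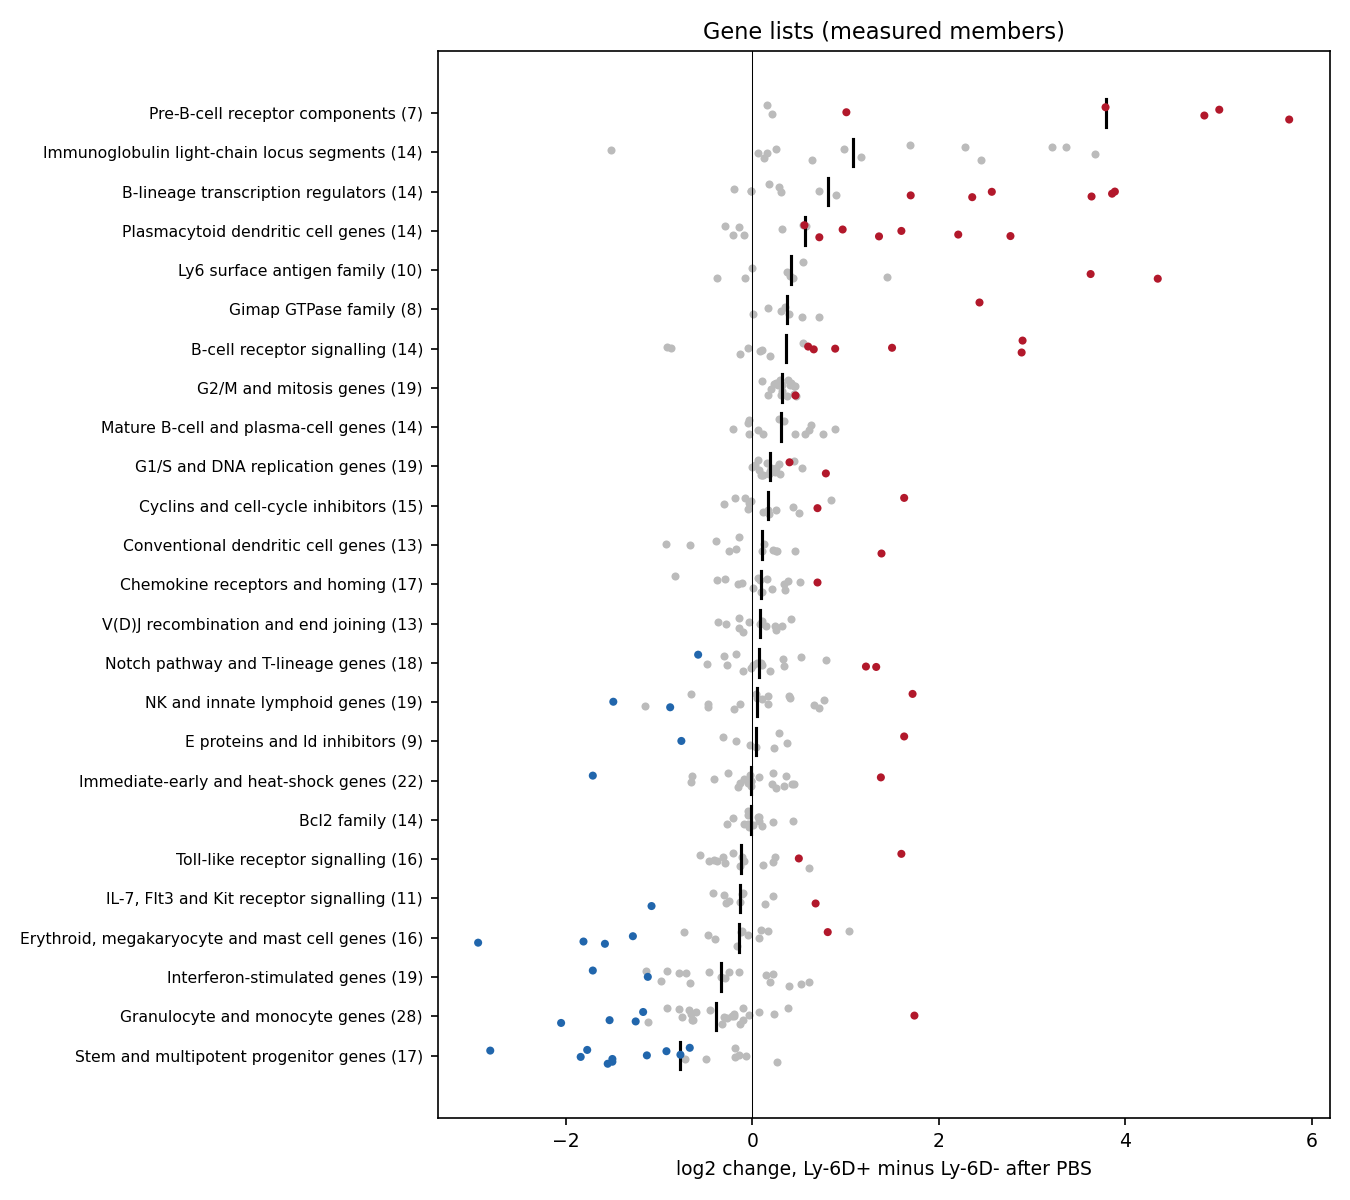
Log2 change after PBS (Ly-6D+ minus Ly-6D-, x axis) of the measured members of each gene list (rows, with the number of members), ordered by the median (black line); red and blue points passed upward and downward, grey points did not. Vertical scatter within a row carries no meaning; the pre-B-cell receptor list has the highest median, 3.79, and the stem and multipotent progenitor list the lowest, -0.77.

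Genes of the T-cell and innate lymphoid fates, which Ly-6D- CLPs are held to keep open, changed in single members. On the Notch and T-lineage list 2 of 18 were higher and 1 lower, against 1.18% and 0.798% of all genes (median log2 change 0.07). Thy1, a surface marker of T cells, read 7.56 and 7.32 against 5.73, 6.29 and 6.30 (2.52-fold higher, adjusted p = 0.00250), and Hes1, a Notch target, 6.73 and 6.38 against 5.34, 5.57 and 5.08 (2.34-fold higher, adjusted p = 0.0401). Gata3, a T and innate lymphoid factor, read 4.66 and 4.95 against 5.23, 5.50 and 5.41 (1.49-fold lower, adjusted p = 0.0475), but another of its probe sets had a log2 change of -0.16. Thy1 did not pass with the PBS arrays fitted alone (adjusted p = 0.0783). Gata3 lost its call without any single array but Ly-6D- PBS array 1 (adjusted p up to 0.316). Hes1 lost it without any single PBS array and without Ly-6D+ CpG array 2 or Ly-6D- CpG array 1 or 2 (up to 0.272). Notch1 itself read 8.73 and 8.70 against 8.69, 8.64 and 8.85 and did not pass (adjusted p = 0.989). The T-cell receptor chains Cd3d, Cd3e and Cd3g stayed between 2.65 and 4.51, and Tcf7 was not analysed here.

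On the NK and innate lymphoid list 1 of 19 was higher and 2 lower, against 1.18% and 0.798% of all genes. The list's median log2 change was 0.05. Nfil3, a factor needed for innate lymphoid cells, read 6.24 and 5.99 against 7.60, 7.65 and 7.56 (2.81-fold lower, SE 0.17, adjusted p = 0.00109). Tox, another early factor of these cells, read 6.60 and 6.79 against 7.54, 7.53 and 7.64 (1.84-fold lower, adjusted p = 0.0223). Klrd1, a NK receptor chain, was 3.29-fold higher (9.67 and 9.84 against 8.34, 8.54 and 7.22, adjusted p = 0.0205). Tox lost its call without any single PBS array (adjusted p up to 0.183) and Klrd1 without either Ly-6D+ PBS array (up to 0.136). Zbtb16, Eomes, Ncr1 and Klrb1c, which define innate lymphoid and NK cells, stayed between 2.50 and 3.93.

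Genes of the G2/M and G1/S lists had mostly small positive changes in Ly-6D+ CLPs, few of which passed. Of 19 measured G2/M genes, 19 had a log2 change above 0 and 17 were higher in every Ly-6D+ array, with a median of 0.32. Of them 1 passed, with 0 to 6 under alternative settings and 0 with any 1 array left out. Over all genes, 1.18% passed as higher, 10661 of 22180 had a log2 change above 0 and 12.9% were higher in every Ly-6D+ array. The gene that passed was Aurkb, the mitotic Aurora B kinase (9.90 and 9.72 against 9.32, 9.38 and 9.36, 1.37-fold, adjusted p = 0.0496), and without any 1 of the 11 arrays it did not pass (adjusted p up to 0.309). The list's mean level was 9.28 and 9.27 in the Ly-6D+ arrays against 9.03, 9.01 and 8.78. Of 19 G1/S genes, 15 were higher in every Ly-6D+ array and 2 passed (median log2 change 0.19). This count was 0 to 4 under alternative settings and 0 to 1 with 1 array left out. Ccne1, which encodes cyclin E1, was 1.73-fold higher (7.71 and 8.04 against 7.29, 7.03 and 6.94, adjusted p = 0.0206). Cdc45, a replication helicase factor, was 1.32-fold higher (adjusted p = 0.0492) and passed in no fit with 1 array left out (up to 0.224). Ccne1 lost its call without Ly-6D+ PBS array 2 or Ly-6D- PBS array 2 or 3 (adjusted p up to 0.164). Rrm2 did not pass (log2 change 0.45, adjusted p = 0.144), while another of its probe sets passed at 0.82. E2f2, E2f8 and Foxm1, cell cycle factors outside these lists, were singled out after their values were seen. They passed by limma as higher, with log2 changes of 0.91, 0.87 and 0.77 (adjusted p = 0.00312, 0.00329 and 0.0124). With the PBS arrays fitted alone, E2f8 and Foxm1 did not pass (adjusted p = 0.071 and 0.0608). For both lists the median stayed above 0 after a further quantile normalisation (0.32 and 0.15) and after centring each array on its median (0.36 and 0.22).

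Among cyclins and cell-cycle inhibitors 2 of 15 were higher and 0 lower, against 1.18% and 0.798% of all genes (median log2 change 0.17). Ccnd3, the D-type cyclin that pre-B cells require, read 9.91 and 9.86 against 8.11, 8.16 and 8.50, with no overlap (3.09-fold, SE 0.15, adjusted p = 3.32e-04). Cdkn2c, the inhibitor p18, was 1.62-fold higher (adjusted p = 0.00915) and lost its call without Ly-6D+ PBS array 1 (adjusted p = 0.109). Ccnd2 had a log2 change of -0.19 (adjusted p = 0.668), and Cdkn1a, the inhibitor p21, missed the threshold at 0.84 (adjusted p = 0.0551). The Bcl2 family of survival and death genes gave 0 calls of 14 by limma under every setting (0 at an unadjusted p below 0.05; median log2 change -0.01).

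Interferon-stimulated genes gave 2 lower and 0 higher of 19, against 0.798% and 1.18% of all genes (median log2 change -0.34). Oasl2 read 5.10 and 5.17 against 7.16, 6.82 and 6.55 (3.27-fold lower, SE 0.24, adjusted p = 0.00385). Ddx58, the RNA sensor RIG-I, read 6.24 and 6.09 against 7.37, 7.42 and 7.06 (2.17-fold lower, adjusted p = 0.00618) and lost its call without Ly-6D+ PBS array 2 (adjusted p = 0.0721). Oas3 and Rtp4 were lower in every Ly-6D+ array and missed the threshold (adjusted p = 0.0577 and 0.0689). Isg15 read 6.82 and 6.06 against 7.08, 6.70 and 6.89 (adjusted p = 0.493).

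Immediate-early and heat-shock genes gave 1 higher and 1 lower of 22, against 1.18% and 0.798% of all genes (median log2 change -0.01). Klf2, a factor of lymphocyte quiescence and migration, read 7.46 and 7.57 against 6.05, 6.06 and 6.30 (2.61-fold higher, adjusted p = 0.00840) and lost its call without either Ly-6D+ PBS array (adjusted p up to 0.0799). Ier3 read 5.35 and 5.73 against 7.13, 7.39 and 7.24 (3.28-fold lower, adjusted p = 0.00191). Among chemokine receptor and homing genes 1 of 17 was higher and 0 lower, against 1.18% and 0.798% of all genes (median log2 change 0.09). It was S1pr1, the receptor for egress signals (4.75 and 4.65 against 3.94, 3.88 and 4.22, 1.61-fold, adjusted p = 0.0469), which lost its call without any single array but Ly-6D- PBS array 3 or Ly-6D- CpG array 1 (adjusted p up to 0.258). Cxcr4, which holds progenitors in the marrow, read 11.23 and 11.20 against 11.03, 10.95 and 11.18 and did not pass (adjusted p = 0.655).

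Of the Gimap family, small GTPases of lymphocytes that lie in a cluster, 1 of 8 passed as higher, against 1.18% of all genes. Gimap4 read 8.09 and 8.15 against 6.08, 5.51 and 5.48 (5.39-fold higher, SE 0.25, adjusted p = 5.40e-04). Every one of the 8 had a log2 change above 0, from 0.01 for Gimap1 to 0.72 for Gimap7 beside Gimap4 (median 0.37). In every Ly-6D+ array 5 of them were higher. Over all genes 10661 of 22180 had a log2 change above 0 and 12.9% were higher in every Ly-6D+ array. Gimap3, Gimap5, Gimap6, Gimap8 and Gimap9 had log2 changes between 0.17 and 0.53 and did not pass. Another probe set of Gimap1 had one of 0.84.

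E-boxes and other motifs were counted in the 250 bases upstream of genes with a RefSeq promoter, on both strands: 204 of the higher genes, 145 of the lower genes and 16990 of all measured genes. CAGGTG was in 22.5%, 20.7% and 19.4% of them. The general E-box CANNTG, which includes it, was in 66.7%, 64.8% and 66.4%. CCCNNGGGA, most of the core that EBF binds, was in 6.86%, 11% and 7.19%. The core of PU.1 sites, GAGGAA, was in 24.0% of the higher and 37.9% of the lower genes against 25.4% of all. The core of Ikaros sites, TGGGAA, was in 25%, 28.3% and 23.7%, and TATAAA in 8.82%, 13.1% and 13.2%. These shares describe the windows and were not tested.

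The same population difference was measured on the 6 CpG arrays, which share no sample with the PBS arrays. There 474 genes passed (2.14%), 266 higher (1.2%) and 208 lower (0.938%). The PBS and CpG tests came from the same fit over all arrays and shared each gene's variance estimate. Calls made after both treatments are therefore not an independent repeat. With only the compared groups fitted, 264 genes passed after CpG and 190 after PBS. The overlap of these separate fits is not given here. Of the 262 genes higher after PBS, 138 passed upward after CpG as well (52.7%) and 242 had the same sign (92.4%). Of the 177 lower genes, 85 passed downward after CpG (48.0%) and 167 had the same sign (94.4%). The share of all measured genes with the same sign is not given here, so these sign shares have no baseline. No gene passed in opposite directions. Since the genes were chosen by their PBS values, smaller differences on the other arrays follow in part from the choice: the difference was smaller after CpG for 202 of the higher and 150 of the lower genes. Igll1 had a log2 change of 5.31 after CpG against 5.76 after PBS, Ebf1 of 3.85 against 3.64, Cd79a of 5.21 against 4.85 and Siglech of 2.95 against 2.77. Myct1 had one of -3.41 against -2.81 and F13a1 of -3.03 against -2.05.

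**Figure D5:**
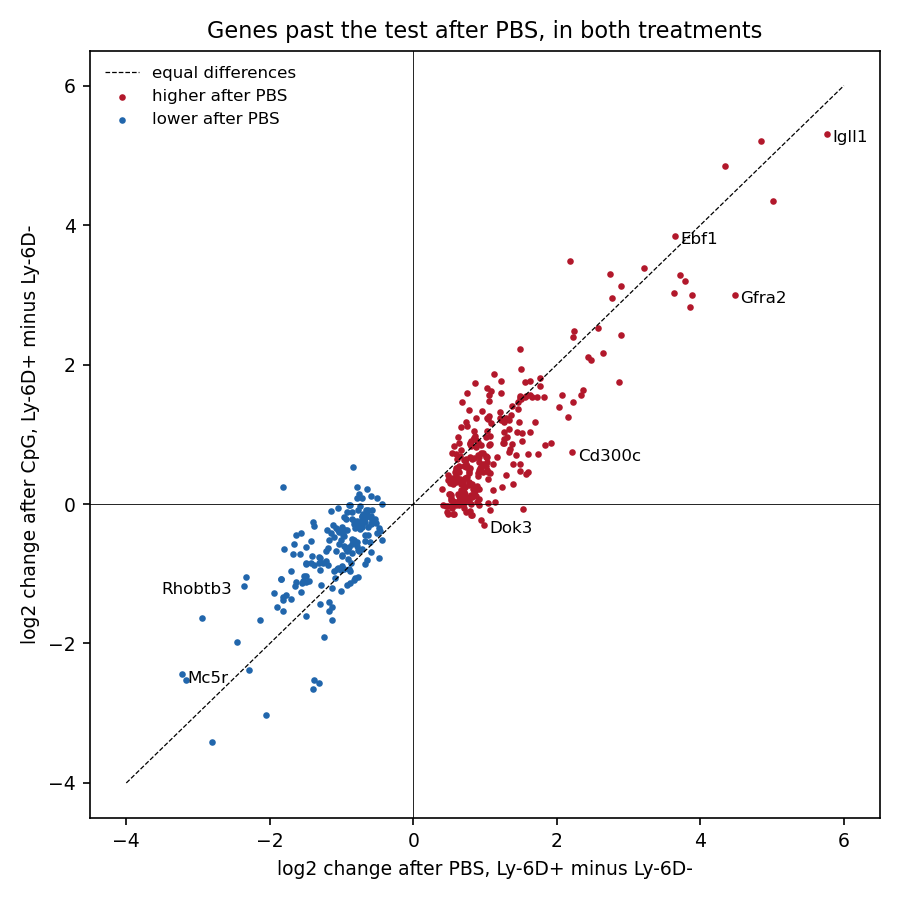
Log2 change between the populations after CpG (y axis) against that after PBS (x axis) for the 439 genes that passed after PBS; red points were higher and blue points lower after PBS, and the dashed line marks equal differences. Of the points, 242 red and 167 blue ones keep their sign after CpG, while Dok3 goes from 0.98 after PBS to -0.30 after CpG.

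Whether the population difference depended on treatment was tested directly, as the difference after PBS minus that after CpG. By limma 0 genes passed (0.0%), and 1413 had an unadjusted p below 0.05 (6.37%), and with limma's trend and robust options 0 passed as well. The 6 smallest p values, none of which passed, belonged to Dok3, Gcnt2, Cd6, Rhobtb3, Cldn12 and Sv2a. Dok3, an inhibitory adaptor of B-cell receptor signalling, had a log2 change of 0.98 after PBS and -0.30 after CpG (unadjusted p = 1.04e-05, adjusted p = 0.231). Gcnt2 had -2.33 and -1.05 and Rhobtb3 -2.36 and -1.17. Cd6, a T-cell surface receptor, had 0.02 and 1.06, Cldn12 -0.89 and -0.02, and Sv2a -0.84 and 0.53. The median log2 change of the G2/M list was 0.32 after PBS and 0.03 after CpG, that of the Gimap family 0.37 and 0.89 and that of the granulocyte and monocyte list -0.39 and -0.32; the difference of these medians was not tested. Without Ly-6D+ PBS array 1, 1 gene passed the test of the difference, Igkv9-120 (log2 difference 6.35, adjusted p = 0.00153), the segment that was bright in Ly-6D+ PBS array 2.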

How the data were processed

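RNA from sorted CLPs was amplified by single-primer isothermal amplification, labelled with biotin and hybridised to Affymetrix arrays, 1 per sample, per the labels' protocols. The deposited values are log2 levels per probe set; the submitters' processing notes name Partek and RMA, without versions. RMA equalises the arrays' distributions, so a shift shared by all genes cannot be seen. Of 41345 probe sets, 23521 had 1 symbol, and the probe set with the highest mean over the 11 arrays stood for each of 22180 genes. The 17824 others were tested apart. A model with a mean per group was fitted over all 11 arrays (limma 3.58.1, R 4.3.3), with Benjamini-Hochberg adjustment and a threshold of 0.05. The script was tested on simulated data. With 2 and 3 arrays, their number limits the precision. No 2 arrays were identical.

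The comparison and the 27 gene lists (1 with no measured member) were chosen with earlier results of these data known. Genes named by rule were the 15 largest rises and 15 largest falls among genes that passed without overlap, up to 5 members of each list by smallest p, all members of lists with 10 or fewer, genes chosen from textbook knowledge, and the 6 smallest p of the difference between treatments. Other list members and genes were named after their values were seen. Alternatives covered probe-set choice, the variance model, array weights, scaling, the replicate number as a block, thresholds and leaving out each array.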

Additional observations from a re-analysis of the deposited data

Results flagged for a closer look

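Probe sets that carry no gene symbol or several lie outside the gene comparison, and some of them differed between the populations after PBS. Of 17824 such probe sets 29 passed (0.163%) by limma adjusted over these probe sets, 20 higher and 9 lower in Ly-6D+ CLPs. Their log2 changes ran from -2.04 to 5.22. Of the 29, 25 carry no symbol and 4 carry several, and 4 share their values with another probe set. No gene was named from them.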

How the results depend on the processing

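The PBS count of 439 genes was 660 with a variance trend and robust estimation, 190 with only the PBS arrays fitted, 697 at an adjusted p below 0.10 and between 185 and 416 with 1 array left out. The CpG count of 474 was 726, 264 and 727 under the same settings and between 264 and 516 with 1 array left out, and it was lowest without Ly-6D- CpG array 2 (264), Ly-6D- CpG array 1 (295) or Ly-6D+ CpG array 1 (305). The test of the difference gave 0 to 1 genes with 1 array left out. The replicate numbers were not taken as pairs, although the labels leave pairing unknown: same-numbered arrays correlated in their deviations at -0.01 and 0.03 after PBS and at 0.06, 0.10 and 0.18 after CpG. After CpG, not after PBS, every array correlated best with its own number, which is only a hint. With the replicate number as a block the counts were 347 and 458, and with the number within treatment as a block 207 and 361. The cause of these changes was not tested, except that fewer arrays leave fewer degrees of freedom. Of the 126 named or listed genes that passed, 0 changed sign under any setting, 70 passed whichever array was left out and 64 under every setting; of the 310 others, 93 changed sign under some setting. Centring each array on its median moved the share of higher calls from 59.7% to 64.6%. The arrays give no counts, so signal over background sets no stated limit for dim genes.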

Other observations

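Other genes that were singled out after their values were seen are given here as values. Ctsb, a lysosomal protease, read 10.71 and 10.81 against 9.54, 9.51 and 9.45 (2.39-fold higher, adjusted p = 3.32e-04), and Ctsl, another, read 8.16 in both Ly-6D+ arrays against 7.11, 6.94 and 6.77 (2.33-fold higher, adjusted p = 2.07e-04). Ctsh was 2.36-fold higher (adjusted p = 0.0223) and lost its call without either Ly-6D+ PBS array or Ly-6D- PBS array 2 or 3 (adjusted p up to 0.164). The prostaglandin E receptor genes Ptger2 and Ptger3 were 1.78-fold and 2.61-fold lower (adjusted p = 0.00442 and 0.00602), and both lost their calls without Ly-6D+ PBS array 1 (0.0506 and 0.0732). Ltc4s, leukotriene C4 synthase, was 2.97-fold lower (adjusted p = 0.0233) and lost its call without any single PBS array (up to 0.165). Il1r1, an interleukin-1 receptor, read 7.72 and 7.79 against 9.29, 9.49 and 9.19 (2.96-fold lower, adjusted p = 0.00108). Cd7, a lymphoid surface protein, read 10.46 and 10.61 against 8.03, 8.41 and 8.17 (5.02-fold higher, adjusted p = 1.72e-05).

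Some genes that passed lie next to each other. Of 22136 genes placed in the RefSeq order, 23 neighbouring pairs passed in the same direction, 14 higher and 9 lower, and 3 pairs passed in opposite directions. On chromosome 10, Vpreb3 lies beside Chchd10 (4.69-fold higher) and that beside Mmp11 (3.08-fold). On chromosome 16, Vpreb2 lies beside Slc25a1, the mitochondrial citrate carrier (2.48-fold higher). On chromosome 7, Ifitm1, Ifitm2 and Ifitm3, interferon-induced membrane proteins, lie together and were 1.90-fold, 1.56-fold and 1.87-fold lower. Ifitm1 lost its call without Ly-6D+ PBS array 2 and Ifitm3 without Ly-6D+ PBS array 1 (adjusted p = 0.0733 and 0.0593), and Ifitm2 without any single array but Ly-6D- CpG array 3 (up to 0.303). Whether neighbours pass together more often than other genes was not tested.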
